A study of Mus musculus with 32 samples.

Results

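Liver transcripts of 4 Nudt7-/- (KO) females were compared with those of 4 KO males, all fed the control diet (CD), which makes 8 of the 32 libraries in the series. All 8 mice carried a whole-body CRISPR/Cas9 deletion of exons 3 and 4 of Nudt7, the gene of a peroxisomal hydrolase of CoA species. The line came from 1 mosaic founder made in FVB zygotes and was backcrossed, and the labels give the strain as C57BL/6J. The mice ate the low-fat CD, with 10% of its energy as fat and 0% cholesterol, from 6 weeks of age until harvest at 17 to 20 weeks, and whether the sequenced livers were fed or fasted is not given in the sources used here. Only genes on autosomes are described, 12170 of which had enough counts to be tested. Their sex difference was set against that of WT littermates on the CD and that of KO mice on a Western diet (WD) with 41% of its energy as fat and 0.2% cholesterol, with 4 females and 4 males each. The labels number the mice within each group and give nothing on litters or cages.

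In the mouse, many liver genes differ between the sexes because the pituitary releases growth hormone (GH) in spaced pulses in males and almost continuously in females. GH pulses activate the transcription factor STAT5b in bursts, and the repressor BCL6 is known to be enriched in male liver and the repressor CUX2 in female liver. The genes known to follow this pattern encode drug- and steroid-metabolizing cytochromes P450 (CYPs), sulfotransferases, transporters and, in males, the major urinary proteins (MUPs) that carry pheromones into urine.

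The libraries held 12012257 to 15084668 estimated counts in KO females (median 13172698) and 10189959 to 13675524 in KO males (median 12671658). Nudt7 itself, on chromosome 8, stood at 20.9, 37.4, 25.8 and 45.0 CPM (estimated counts of a gene relative to library size, with TMM scaling factors) in KO females 1 to 4 and at 179, 72.3, 247 and 59.7 CPM in KO males 1 to 4. The groups did not overlap, yet the difference was not called (log2 fold change, females over males, −2.11, standard error 0.54, adjusted p = 0.0682 from edgeR's quasi-likelihood test). It was called without KO male 4 (adjusted p = 0.0392), and with DESeq2 (0.00126). Of the 5 Nudt7 transcripts with counts in WT livers on the CD, 3 were at 0 in all 8 KO libraries, and the counts left belonged to the other 2. KO female 3 stood apart from the other libraries, for it had a count for 28 of 30 pancreatic acinar genes and a summed level of 3810 CPM for them, while KO female 2 had 158 CPM and the other 6 libraries 8.26 to 30 CPM. In those 6, between 3 and 15 of the 30 genes had any count. Without KO female 3, 762 genes were called, of which 612 were among the 811 called with it. The 15 hepatocyte identity genes did not separate the sexes, and none was called by edgeR or DESeq2, with 0 at an unadjusted p under 0.05 in edgeR's test. In bulk liver, fewer cells of a type and less RNA per cell cannot be told apart.

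Between KO females and KO males, 811 of the 12170 autosomal genes (6.66%) passed an adjusted p of 0.05 in edgeR's test. Of these, 420 (3.45% of the genes tested) were higher in females and 391 (3.21%) were lower. These shares are the background for the counts of called genes in each list below. An unadjusted p under 0.05 in edgeR's test was found for 2662 of the 12170 genes. Among the 811 called genes, 72 were over 4-fold higher and 55 over 4-fold lower, while the median log2 fold change of all genes tested was 0.01. The 4 and 4 libraries did not overlap for 788 of the 811 genes, and for 15.0% of all genes tested. Each of the 8 libraries was left out in turn, and 400 of the 811 calls held in all 8 fits, 214 of them higher and 186 lower. The number of calls fell to 519 without KO male 3 and to 525 without KO male 4. It rose to 1268 with DESeq2, which kept 809 of the 811.

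The leading genes, those with the largest fold changes among called genes of at least moderate level and with no overlap between the sexes, came mostly from a few families on the higher side and from more on the lower side. The 14 higher genes included CYPs of the 2a, 2b and 3a subfamilies, sulfotransferases of the 2a and 3a families and the organic anion transporter gene Slc22a26. The 14 lower genes included MUPs, the ω-hydroxylases Cyp4a12a and Cyp4a12b, Elovl3, Hsd3b5 and the transporter genes Slco1a1 and Slc22a28. Of these 28 genes, 17 had a promoter entry from RefSeq, and for 12 of them its start was also the start of RefSeq's own gene record, which can differ from GENCODE's start, as it does by a few bases in Sult2a3. Of the 12, 6 are shown over the 150 bases before the start (GRCm38.p6, 5′ to 3′ on the gene's strand). They are the transporter pair that differed in opposite directions and some members of families that led each side. Cyp2a4 and Cyp2b10, of such families, are among those not shown. Capitals mark the core of a STAT-type site, TTCNNNGAA, which reads alike on either strand, and the letters ATCAAT, the core of known CUX2 and HNF6 sites, searched on both strands.
Cyp3a41a, higher in females, chr5:145720137-145720286, minus strand: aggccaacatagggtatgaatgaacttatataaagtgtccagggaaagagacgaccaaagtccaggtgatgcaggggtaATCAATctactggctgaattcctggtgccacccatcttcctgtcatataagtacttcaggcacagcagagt
Sult2a3, higher in females, chr7:14123049-14123198, minus strand: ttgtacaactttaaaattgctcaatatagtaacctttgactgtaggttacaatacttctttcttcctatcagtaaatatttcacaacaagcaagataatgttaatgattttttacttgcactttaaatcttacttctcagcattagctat
Sult2a5, higher in females, chr7:13623817-13623966, plus strand: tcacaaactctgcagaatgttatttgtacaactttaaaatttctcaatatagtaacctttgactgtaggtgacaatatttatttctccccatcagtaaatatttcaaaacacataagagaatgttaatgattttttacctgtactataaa
Slc22a26, higher in females, chr19:7802668-7802817, minus strand: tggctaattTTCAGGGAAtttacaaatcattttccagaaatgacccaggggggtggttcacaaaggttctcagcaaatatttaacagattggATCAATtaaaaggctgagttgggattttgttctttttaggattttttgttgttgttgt
Slc22a28, lower in females, chr19:8131983-8132132, minus strand: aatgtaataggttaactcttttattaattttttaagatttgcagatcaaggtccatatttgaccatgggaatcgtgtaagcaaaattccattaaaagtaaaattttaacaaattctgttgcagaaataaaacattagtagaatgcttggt
Mup7, lower in females, chr4:60070476-60070625, minus strand: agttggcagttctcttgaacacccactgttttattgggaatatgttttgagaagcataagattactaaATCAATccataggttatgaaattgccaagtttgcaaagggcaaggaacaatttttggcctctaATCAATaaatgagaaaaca
TTCNNNGAA was found in 1 of the 12 windows, that of Slc22a26, where it began 141 bases before the start, and it was found in 4.11% of 31396 autosomal promoters over the same 150 bases. ATCAAT was found in 3 of the 12, at 71 bases before the start in Cyp3a41a, at 58 in Slc22a26 and at 82 and 19 in Mup7, against 3.74% of the same promoters. Every window with a match is shown above, and the windows not shown had none, so the printed ones overstate how common matches were. The windows of Sult2a3 and Sult2a5 were identical at 65.3% of aligned positions, and those of Slc22a26 and Slc22a28, which lie in the same stretch of chromosome 19 and differed in opposite directions, at 48.1%. A match says only that the letters are there.

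**Figure D1:**
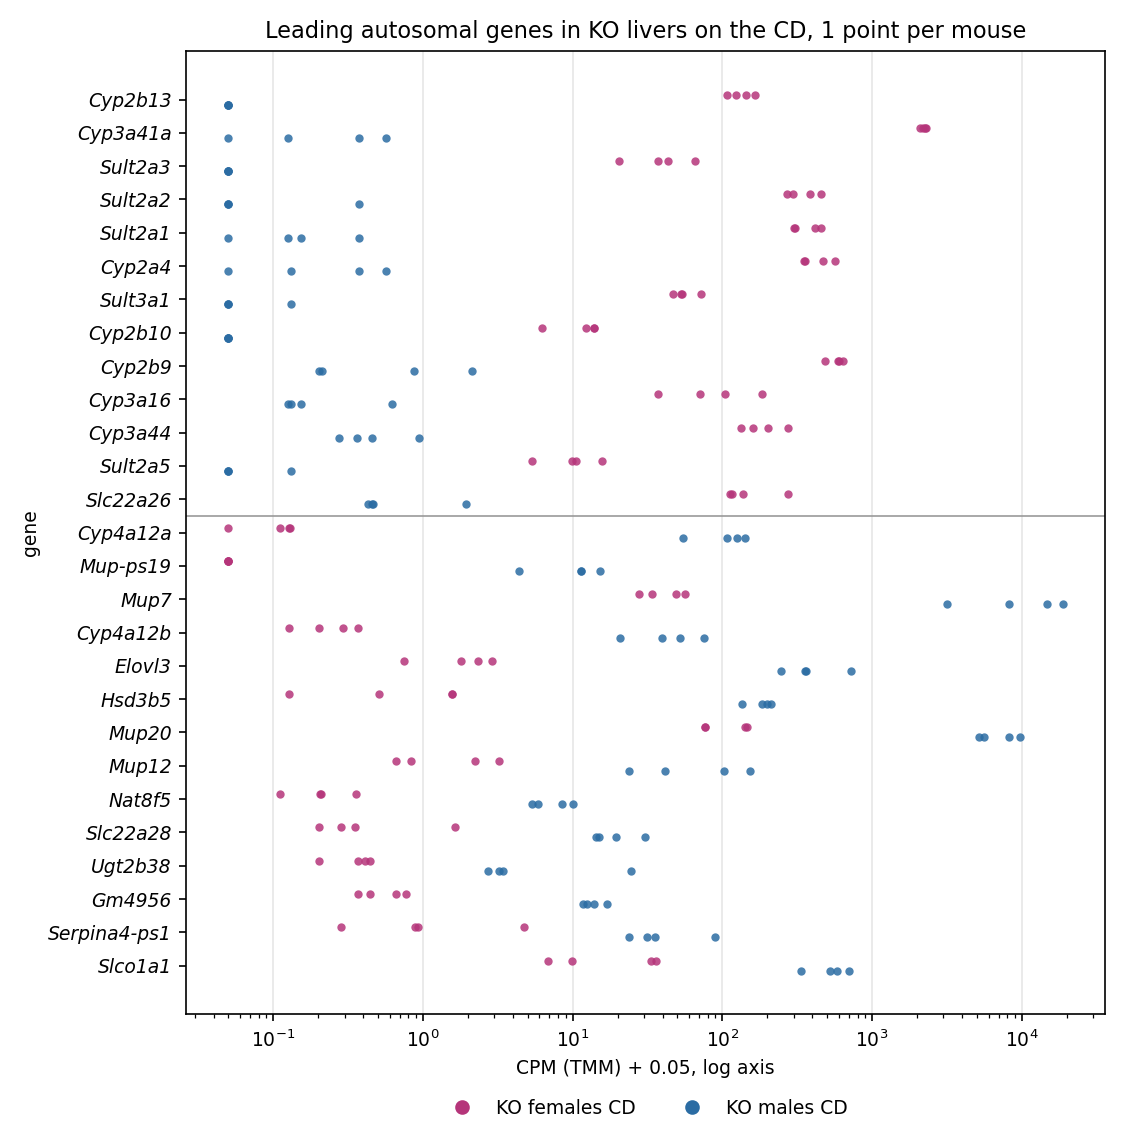
Level of leading higher genes (above the line) and leading lower genes (below it) in each KO liver on the CD, as CPM plus 0.05 on a log x axis, with genes on the y axis and 1 point per library (magenta KO females, blue KO males, 4 each). The genes were chosen for having no overlap between the sexes, and they run from Cyp3a41a with 2101 to 2279 CPM in females and at most 0.517 CPM in males to Slco1a1 with at most 36.3 CPM in females and at least 335 CPM in males.

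Several CYPs of subfamilies 2b, 2a and 3a, which hydroxylate steroids and drugs, were at or near 0 in male livers, while other members of 2a and 3a were well expressed in both sexes. Cyp3a41a stood at 2279, 2270, 2183 and 2101 CPM in KO females 1 to 4, against 0.0756, 0, 0.327 and 0.517 CPM in KO males 1 to 4. Its log2 fold change was 13.28 (standard error 0.39, adjusted p = 4.62e-09), and the 4 females lay close together. Cyp2b13 stood at 166, 107, 144 and 124 CPM in females and had 0 counts in all 4 male libraries, at least 2150-fold higher when set against 3 counts over the male group. Cyp2b9 had 638, 483, 595 and 603 CPM in females and 0.151, 0.817, 0.163 and 2.07 CPM in males (log2 fold change 9.61, standard error 0.53, adjusted p = 1.63e-05). Cyp2b10, the classical target of the xenobiotic receptor CAR, was lower in level, with 13.8, 6.21, 12.2 and 13.8 CPM in females and 0 counts in males, at least 182-fold higher. Every female library lay above every male library in all of these genes.

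Cyp2a4, a testosterone 15α-hydroxylase, had 472, 356, 564 and 351 CPM in females and at most 0.517 CPM in males (log2 fold change 10.94, standard error 0.42). Cyp2a22, of the same subfamily, had 58.3 to 68.5 CPM in females and 0.490 to 1.47 CPM in males (6.11, 0.22). Cyp3a44 and Cyp3a16 varied more among females. Cyp3a44 had 132, 201, 272 and 160 CPM in females and 0.227 to 0.898 CPM in males, and Cyp3a16 had 37.3, 70.6, 183 and 104 CPM in females and 0.0756 to 0.572 CPM in males. In both, KO female 3 was the highest and KO female 1 the lowest. Reads of the Cyp2b, Cyp2a and Cyp3a paralogs can be split between near-identical transcripts, so the share of each paralog is uncertain, while the sum over a subfamily is less so. Summed over the subfamily, Cyp2b stood at 726 ± 93.4 CPM in females and 0.800 ± 0.901 CPM in males (SD, n = 4 each), Cyp3a at 5095 ± 92.5 and 1493 ± 738 CPM, and Cyp2a at 1273 ± 115 and 463 ± 66.2 CPM. For Cyp2c, whose members oxidize arachidonate and drugs, the sum was 4602 ± 431 CPM in females and 2944 ± 788 CPM in males.

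Over the 40 CYP2 and CYP3 genes tested, 17 were higher in females and 3 lower (median log2 fold change 0.45, against 0.01 over all genes), and 13 and 3 of these calls held whichever library was left out. The 3 lower genes are named after their values had been seen. Cyp2d9, a steroid 16α-hydroxylase of male mouse liver, had 26.2, 40.3, 19.2 and 34.5 CPM in females and 467, 496, 611 and 705 CPM in males (log2 fold change −4.25, standard error 0.25). Cyp2u1 had 6.40 to 15.8 CPM in females and 66.2 to 95.7 CPM in males (−3.10, 0.27), and Cyp2c67 had 93.9 to 153 CPM in females and 231 to 430 CPM in males (−1.21, 0.22). Summed over the subfamily, Cyp2d overlapped between the sexes, with 1630 ± 287 CPM in females and 2028 ± 327 CPM in males.

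**Figure D2:**
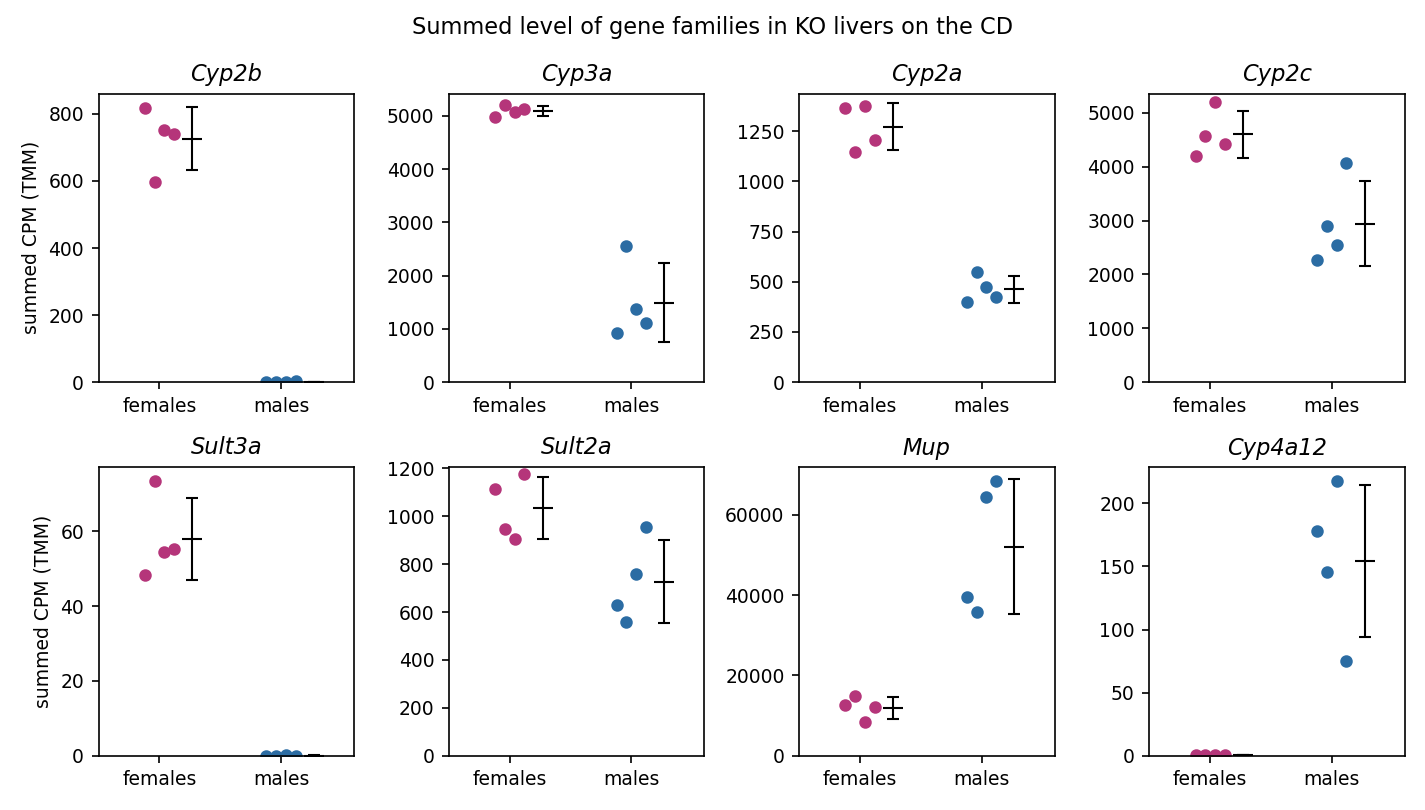
Summed CPM (y axis, from 0) of 8 gene families in KO females and KO males on the CD (x axis), with 1 point per library and the mean ± SD (n = 4) beside the points. Cyp2b, Cyp3a, Cyp2a, Cyp2c and Sult3a lie higher in every female than in every male, Mup and Cyp4a12 lie lower, and Sult2a overlaps at 1035 ± 129 CPM in females and 727 ± 174 CPM in males.

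Sulfotransferases, which add sulfate to steroids, bile acids and phenols, and the enzymes of their sulfate donor were higher in females for 10 of 16 genes tested and lower for 1, with a median log2 fold change of 1.12. Sult2a1, which sulfates steroids and bile acids, had 416, 306, 300.0 and 455 CPM in females and 0.0756, 0.327, 0 and 0.103 CPM in males (11.40, standard error 0.36, adjusted p = 9.75e-09). Sult2a2 had 268 to 456 CPM in females and at most 0.327 CPM in males. Sult3a1, an amine sulfotransferase, had 46.9, 71.6, 53.3 and 52.5 CPM in females and 1 count in all 4 male libraries together, a ratio of 2640 with a 95% interval from 474 to 105000 that covers counting error only. Sult2a5 likewise had 551 counts in females and 1 in males, a ratio of 475 (84.9 to 18800). Sult2a3 had 43.5, 36.9, 20.4 and 65.6 CPM in females and 0 counts in males, at least 637-fold higher. Its call was lost without KO female 1 (adjusted p = 0.0536). Sult2a8, a hepatic bile acid sulfotransferase named after its values had been seen, ran the other way, with 185, 294, 310.3 and 250 CPM in females and 629, 557, 758 and 955 CPM in males (−1.48, standard error 0.20, adjusted p = 0.00111). Because of it, the summed Sult2a family overlapped between the sexes although 4 of its genes were near 0 in males. The Sult2a paralogs may share reads.

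The flavin monooxygenase genes Fmo1 and Fmo2, whose products oxidize nitrogen and sulfur in drugs and other compounds, were higher in females in every leave-one-out fit. Fmo2 had 41.1 to 53.9 CPM in females and 7.94 to 12.4 CPM in males (log2 fold change 2.18, standard error 0.15), and Fmo1 had 273 to 319 CPM in females and 148 to 189 CPM in males (0.81, 0.11). In both genes every female lay above every male.

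Among 28 transporters of organic anions and cations, 7 were higher and 4 lower in females (over all genes tested, 3.45% and 3.21%). The Slc22a genes of chromosome 19 split by direction. Slc22a26 had 113, 137, 273 and 116 CPM in females and 0.378, 1.88, 0.408 and 0.414 CPM in males (7.66, standard error 0.58), and Slc22a27 had 37.8 to 50.2 CPM in females and 0.103 to 1.47 CPM in males (5.86, 0.39). Slc22a28 had 0.234, 1.59, 0.302 and 0.153 CPM in females and 15.0, 14.2, 19.4 and 30.6 CPM in males (−5.14, 0.56). Slco1a1, an uptake carrier for bile acids and steroid conjugates, had 6.79, 33.5, 36.3 and 9.79 CPM in females and 526, 335, 582 and 697 CPM in males (−4.63, 0.64). Among efflux pumps, Abcg2 was lower in females (26.5 to 33.5 CPM, against 65.7 to 77.4 CPM in males), while Abcc3 (142 to 201 CPM, against 46.7 to 72.3 CPM) and Abcb1a (9.14 to 14.7 CPM, against 1.76 to 3.55 CPM) were higher. For all 3 pumps the groups were separate and the calls held in every leave-one-out fit.

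MUPs, lipocalins made in the liver and excreted in urine, were lower in females. Mup7 had 48.7, 56.1, 27.5 and 33.8 CPM in females and 8164, 3183, 14810 and 18860 CPM in males (log2 fold change −8.08, standard error 0.69, adjusted p = 0.000390). Mup20, the gene of darcin, had 141, 145, 76.6 and 76.5 CPM in females and 5632, 8201, 9673 and 5205 CPM in males (−6.03, 0.34, adjusted p = 1.64e-06). Mup12 had 0.612 to 3.18 CPM in females and 23.6 to 153 CPM in males (−5.59, 0.86), and the pseudogene Mup-ps19 had 0 counts in females and 491 in males, at least 190-fold lower in females. Males differed several-fold among themselves in Mup7 and Mup12, in which KO male 2 was the lowest and KO male 4 the highest, but every male lay above every female. Of 22 MUP genes tested, 14 were lower in females and 1 was higher (median log2 fold change −2.25), and 10 of the lower calls held in every leave-one-out fit. The higher one, Mup18, was named after its values had been seen, had 301 to 408 CPM in females and 154 to 268 CPM in males, and lost its call in 5 of the 8 fits (highest adjusted p = 0.0887). Mup genes are near-identical, so counts can move between them. Their sum over 48 annotated genes and pseudogenes was 11990 ± 2744 CPM in females and 52110 ± 16820 CPM in males (SD, n = 4 each).

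Lipid enzymes were among the leading lower genes. Cyp4a12a, which makes 20-HETE from arachidonate, had 3 counts in the 4 female libraries together, against 126, 107, 143 and 54.3 CPM in KO males 1 to 4, 2030-fold lower in females with a 95% counting interval from 694 to 9840. Cyp4a12b, which can share reads with it, had 0.0781 to 0.318 CPM in females and 20.7 to 75.3 CPM in males. Elovl3, an elongase of very long-chain fatty acids, had 0.703, 1.75, 2.84 and 2.29 CPM in females and 246, 356, 361 and 719 CPM in males (−7.76, standard error 0.52, adjusted p = 0.000102). It was the only 1 of 26 genes of fatty acid and triacylglycerol synthesis to be called, against 6.66% of all genes tested.

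Genes of unrelated function followed the same direction. Nat8 and Nat8f5, N-acetyltransferase genes next to each other on chromosome 6, had at most 0.605 and 0.306 CPM in females and at least 7.65 and 5.27 CPM in males (−4.39, standard error 0.27, and −5.42, 0.38). Susd4, a complement regulator, had 0.725 to 1.27 CPM in females and 15.9 to 26.9 CPM in males (−4.25, 0.24). Of the complement genes whose products form the membrane attack complex, C6, C8a, C8b and C9 were lower in females, and C7 (log2 fold change −0.18), C8g (−0.24) and Hc, which encodes C5 (−0.30), were not called. The last 3 are named after their values had been seen. C6 had 14.7, 19.8, 23.3 and 20.0 CPM in females and 179, 188, 274 and 231 CPM in males (−3.48, 0.18, adjusted p = 3.13e-07), and C8a had 131 to 217 CPM in females and 491 to 845 CPM in males (−1.93, 0.19). C8b (−1.62, 0.17) and C9 (−1.05, 0.16) differed less. These 4 were the lower genes among 41 of complement and coagulation, of which 1 was higher, the clotting factor gene F7, named after its values had been seen (0.44, 0.10, lost in 5 of the 8 leave-one-out fits with a highest adjusted p of 0.0861). Genes of the serpin a cluster were also lower, 4 of 16 tested, among them Serpina12 (4.92 to 14.2 CPM in females, 45.5 to 122.9 CPM in males) and Serpina3k (3851 to 5133 CPM in females, 7081 to 9127 CPM in males).

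Gstp1, a glutathione S-transferase, had 203, 177, 120.1 and 137 CPM in females and 591, 678, 659 and 1411 CPM in males (−2.39, standard error 0.31, adjusted p = 0.00192). KO male 4 was the highest by far, but the other 3 males also lay above all females. Among 21 glutathione S-transferase genes, 2 were higher and 2 lower, and only the call of Gstp1 held in every leave-one-out fit. Among 20 UDP-glucuronosyltransferase genes 1 was higher, Ugt1a1, the enzyme that conjugates bilirubin (684 to 786 CPM in females, 356 to 528 CPM in males, log2 fold change 0.75, standard error 0.15), and 3 were lower, of which Ugt2b1 (168 to 207 CPM in females, 322 to 592 CPM in males, −1.32, 0.18) held in every fit. The large fold change of Ugt2b38 (−4.74, 1.08) was measured with 0.153 to 0.391 CPM in females and, in males, 24.5 CPM in KO male 3 beside 2.69 to 3.40 CPM in the other males. Without KO male 3 it was −3.29 (standard error 0.34), and its call was lost in 6 of the other 7 fits (highest adjusted p = 0.123).

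Of 40 tested genes in a list of known female-predominant liver genes, 37 were higher in KO females and none was lower, with a median log2 fold change of 5.75, and 31 calls held in every leave-one-out fit. Of 37 tested genes in a list of male-predominant genes, 28 were lower and 1 was higher, with a median of −3.29, and 22 lower calls held. Both lists were written with results of these data known, so the counts describe the genes and are not independent evidence of their direction. The exception was the gene model 1810046K07Rik, named after its values had been seen, with 1.15 to 2.14 CPM in females and 0.163 to 1.06 CPM in males, and it lost its call in 6 of the 8 fits (highest adjusted p = 0.105). In 1 model of all 32 libraries the medians of the female-predominant list were 5.75 in KO mice on the CD, 4.56 in WT mice on the CD and 5.29 in KO mice on the WD, and those of the male-predominant list were −3.29, −2.95 and −3.38. The difference between these medians was not tested.

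**Figure D3:**
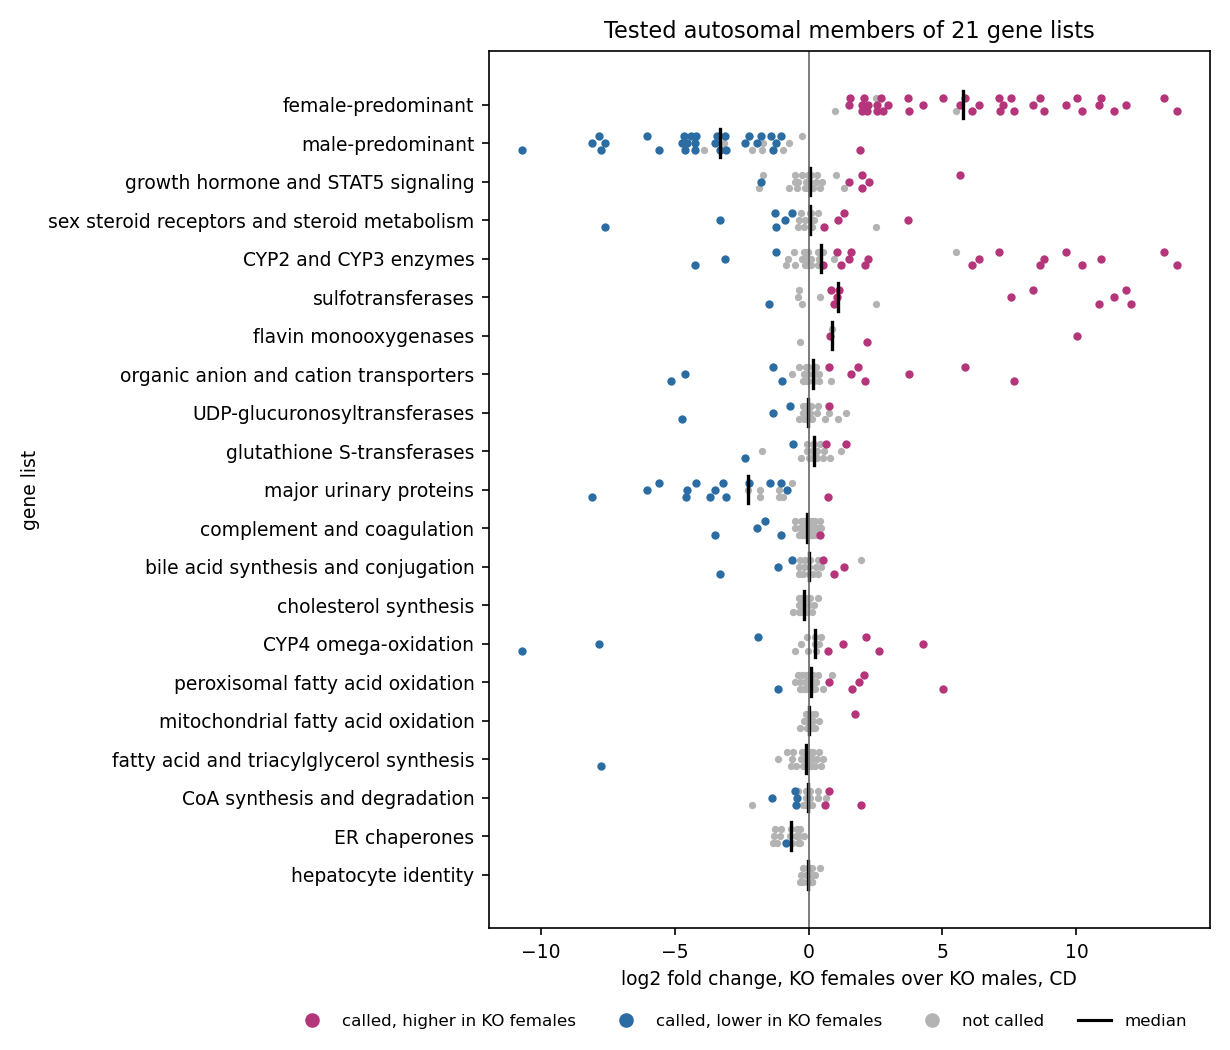
Log2 fold change of KO females over KO males on the CD (x axis) for every tested autosomal member of 21 gene lists (y axis), with 1 point per gene in magenta if called and higher in females, in blue if called and lower and in grey if not called, and a black bar at the list's median. The medians of the female- and male-predominant lists stand at 5.75 and −3.29 and that of the MUPs at −2.25, whereas the medians of most metabolic lists lie near 0.

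The GH and STAT5 list, with the hormone's receptor, its signal proteins and known targets, gave 5 higher and 1 lower gene among 27 (median log2 fold change 0.04). Cux2, the female-enriched repressor, had 24.5, 29.2, 29.7 and 19.7 CPM in females and 0.302, 0.327, 0.980 and 0.414 CPM in males (5.64, standard error 0.28, adjusted p = 2.67e-07). Trim24, a coregulator of nuclear receptors, had 45.5 to 70.3 CPM in females and 13.1 to 15.0 CPM in males (2.00, 0.14), and Tox, a nuclear HMG-box protein gene, had 8.99 to 9.98 CPM in females and 1.24 to 3.02 CPM in males (2.00, 0.22). These 3 calls held in every leave-one-out fit. Prlr, the prolactin receptor (225 to 378 CPM in females, 51.8 to 164 CPM in males), and Lepr, the leptin receptor (42.2 to 125 CPM in females, 7.02 to 26.2 CPM in males), were also higher, but their calls were lost in 6 and 7 of the 8 fits (highest adjusted p = 0.0827 and 0.123). Egfr, the receptor of epidermal growth factor, was lower, with 139, 175, 307 and 127 CPM in females and 1011, 581, 490 and 501 CPM in males (−1.79, 0.34, adjusted p = 0.0177), and lost its call without KO female 1 (0.0571) or KO female 2 (0.0511).

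Other genes of the axis, named after their values had been seen, were not called. Ghr, the GH receptor, had 393, 498, 428 and 502 CPM in females and 610.4, 549, 631 and 607 CPM in males (−0.40, standard error 0.12, adjusted p = 0.0750). Igf1, the GH-induced growth factor, had 370, 518, 492 and 404 CPM in females and 689, 650.1, 569 and 614 CPM in males (−0.50, 0.14, adjusted p = 0.0513). Stat5b had 86.2 to 99.6 CPM in females and 71.8 to 78.7 CPM in males (0.30, 0.09, adjusted p = 0.0753). In these 3 genes the groups did not overlap but differed little. Of 18 alternative fits, 4 called Ghr, 4 called Igf1 and 2 called Stat5b. Bcl6, the male-enriched repressor, had 11.3, 6.13, 7.19 and 11.6 CPM in females and 7.11, 18.9, 22.8 and 69.5 CPM in males (−1.70, 0.70, adjusted p = 0.219), and KO male 1 lay within the range of the females.

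Among 23 genes of sex steroid reception and steroid metabolism, 4 were higher and 6 lower in females, and 4 calls in each direction held in every leave-one-out fit. Hsd3b5, a 3-ketosteroid reductase of male mouse liver, had 0.0781, 1.51, 1.51 and 0.459 CPM in females and 183, 135, 210.2 and 199 CPM in males (−7.61, standard error 0.47, adjusted p = 4.48e-05). Cyp7b1, which hydroxylates oxysterols and DHEA, had 11.5, 18.2, 15.8 and 13.6 CPM in females and 113, 109, 233 and 125 CPM in males (−3.29, 0.28, adjusted p = 0.000164). Srd5a1, a steroid 5α-reductase, had 30.5 to 45.6 CPM in females and 77.0 to 117 CPM in males (−1.26, 0.16), and Hsd3b3 had 142 to 178 CPM in females and 277 to 344 CPM in males (−0.86, 0.12). In all 4 the sexes were separate. Hsd3b paralogs may share reads.

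In bile acid synthesis and conjugation, 3 of 21 genes were higher and 3 lower in females (over all genes tested, 3.45% and 3.21%). Cyp7b1 of the alternative pathway was lower (above), as was Scp2, a thiolase and sterol carrier of the peroxisome that shortens the side chain. Scp2 had 1745, 1704, 1312 and 1854 CPM in females and 3488, 3281, 3970 and 4003 CPM in males (−1.16, standard error 0.15, adjusted p = 0.000741). In summed TPM its sexes lay closer, with means of 1522 in females and 2158 in males. Over 18 alternative fits its call held, with log2 fold changes from −1.22 to −0.63. Its transcripts were not tested separately. Cyp39a1, an oxysterol 7α-hydroxylase, was higher, with 128, 74.2, 76.7 and 89.0 CPM in females and 31.98, 37.5, 29.9 and 47.1 CPM in males (1.33, 0.20, adjusted p = 0.00283). These 3 calls held in every leave-one-out fit. Those of Cyp2a12 (0.54, 0.13, lost in 6 of the 8 fits, highest adjusted p = 0.0775), which hydroxylates deoxycholate in mice, Cyp46a1 (0.94, 0.22, lost in 4, 0.0751) and Akr1c6 (−0.61, 0.14) did not. Akr1c6 lost its call without KO male 4 (0.0607), KO female 1 (0.0514) or KO female 4 (0.0657). The rate-limiting gene Cyp7a1, named after its values had been seen, had 37.3, 67.8, 587 and 82.3 CPM in females and 83.2, 32.8, 58.7 and 24.2 CPM in males, a difference of 1.96 on the log2 scale (standard error 1.01, adjusted p = 0.319) that was 0.33 without KO female 3. Cyp8b1, which makes cholic acid and was chosen likewise, had 268 to 428 CPM in females and 174 to 342 CPM in males (0.47, 0.23, adjusted p = 0.252). Of 18 genes of cholesterol synthesis, none was called by edgeR or DESeq2, and 0 had an unadjusted p under 0.05 in edgeR's test.

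Of 17 genes of fatty acid ω-oxidation, in which CYP4 enzymes take the first step, 5 were higher in females and 3 lower. Over all genes tested, the shares were 3.45% and 3.21%. The Cyp4a genes were among both, with Cyp4a10, Cyp4a14, Cyp4a31 and Cyp4a32 higher. The calls of Cyp4a14 and Cyp4a32 did not hold in every leave-one-out fit. The Cyp4a12 pair was lower in females, as given above. Cyp4a10, a PPARα target, had 397, 189, 331 and 318 CPM in females and 33.3, 50.9, 54.5 and 60.5 CPM in males (2.63, standard error 0.25, adjusted p = 0.000202). Adh4, an alcohol dehydrogenase, was lower, with 34.4 to 76.2 CPM in females and 156 to 243 CPM in males (−1.88, 0.24). Aldh3a2, the fatty aldehyde dehydrogenase, was higher, with 246 to 289 CPM in females and 126 to 207 CPM in males (0.74, 0.15).

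Peroxisomal β-oxidation, the pathway beside which NUDT7 works, had 5 higher and 1 lower gene among 28 (median log2 fold change 0.11). Over all genes tested, the shares were 3.45% and 3.21%. Of the 5 higher calls, 3 held in every leave-one-out fit, those of Acot3, Acot4 and Abcd2. Acot3, a peroxisomal acyl-CoA thioesterase, had 124, 65.1, 67.2 and 61.9 CPM in females and 2.04, 2.86, 0.163 and 4.96 CPM in males (5.04, standard error 0.62, adjusted p = 0.00500). Acot4, which hydrolyzes dicarboxylyl-CoAs, had 220, 128, 128 and 128 CPM in females and 53.8, 56.6, 24.3 and 59.5 CPM in males (1.64, 0.31, adjusted p = 0.0169). Abcd2, a peroxisomal importer of very long-chain acyl-CoAs, had 44.1 to 92.4 CPM in females and 9.47 to 19.7 CPM in males (2.06, 0.28). In Acot3 and Acot4, KO female 1 was the highest and the other 3 females lay close together. Scp2, given above, was the lower gene. Of 24 genes of mitochondrial fatty acid oxidation only Cpt1b was called, against 6.66% of all genes tested. It had 5.94 to 10.8 CPM in females and 0.898 to 2.79 CPM in males (1.74, 0.32). Its call was lost in 2 of 18 alternative fits, over which the log2 fold change fell as low as 1.06. In summed TPM its means were 5.45 in females and 2.38 in males.

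Of 22 genes of CoA synthesis and degradation, 3 were higher and 4 lower in females, with a median of −0.02. Over all genes tested, 3.45% were higher and 3.21% lower. The pantetheinase genes Vnn1 and Vnn3, whose products cleave pantetheine to pantothenate, were higher. Vnn1 had 72.1, 27.6, 39.8 and 50.6 CPM in females and 15.7, 8.74, 12.3 and 12.0 CPM in males (1.96, standard error 0.30, adjusted p = 0.00673), and Vnn3 had 75.5 to 102 CPM in females and 46.0 to 60.9 CPM in males (0.77, 0.12). The ecto-nucleotide pyrophosphatase genes split, Enpp1 being higher (41.4 to 46.9 CPM in females, 28.2 to 31.2 CPM in males) and Enpp3 lower (56.5 to 78.1 CPM in females, 86.5 to 104 CPM in males). Enpp3 lost its call without KO male 1 (adjusted p = 0.0556), KO male 3 (0.0697) or KO female 4 (0.0575). Slc25a17, the peroxisomal carrier of CoA and nucleotides, was lower (34.7 to 41.8 CPM in females, 48.5 to 58.1 CPM in males, −0.48, 0.10), as was Aasdhppt, the phosphopantetheinyl transferase (−0.43, 0.10), which lost its call without KO male 4 (0.0616) or KO female 4 (0.0585). Fitm1, named after its values had been seen and encoding a lipid droplet protein of the FIT family, had 0.841 to 1.63 CPM in females and 1.55 to 4.08 CPM in males, and its call was lost in 6 of the 8 fits (highest adjusted p = 0.0867). The related hydrolases Nudt8, mitochondrial, and Nudt19, peroxisomal, were chosen likewise and were not called, with 5.68 to 6.65 and 28.2 to 43.2 CPM in females and 5.63 to 8.66 and 31.6 to 40.3 CPM in males.

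Some genes of fatty acid uptake were higher in females. Cd36, a fatty acid translocase, had 107, 86.6, 79.6 and 140.5 CPM in females and 42.3, 30.6, 37.6 and 31.95 CPM in males (1.54, standard error 0.18, adjusted p = 0.000489). Vldlr, the VLDL receptor, had 17.5 to 25.5 CPM in females and 2.20 to 3.83 CPM in males (2.98, 0.19), and Slc27a1, the transporter FATP1, had 7.96 to 14.8 CPM in females and 2.72 to 4.08 CPM in males (1.83, 0.25). Fabp1, the liver fatty acid-binding protein, was lower, with 1328, 1461, 1233 and 1328 CPM in females and 2705, 2194, 2558 and 2531 CPM in males (−0.90, 0.13, adjusted p = 0.00145). In the 32-library model its log2 fold change was 0.35 in WT mice on the CD (adjusted p = 0.427) and 0.00 in KO mice on the WD (0.995). WT females on the CD ran from 1070 to 3602 CPM. Tested directly with edgeR, the sex difference of Fabp1 was not called different between KO and WT mice (adjusted p = 0.183). Nor was it between the diets (0.248). Of 23 genes of uptake and lipid droplets, 4 were higher and 2 lower. Among 23 carboxylesterases and other lipases 2 were higher and 2 lower (over all genes tested, 3.45% and 3.21%), and Ces1g (181 to 262 CPM in females, 113 to 171 CPM in males, 0.82, 0.16) and Ces3a (474 to 780 CPM in females, 1146 to 2219 CPM in males, −1.38, 0.22) held in every leave-one-out fit.

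Among 22 nuclear receptors 2 were higher in females and none lower (over all genes tested, 3.45% and 3.21%). Nr1i3, which encodes CAR, had 412, 238, 315 and 245 CPM in females and 69.6, 116, 81.9 and 137 CPM in males (1.58, standard error 0.25, adjusted p = 0.00482), and its call held in every leave-one-out fit. Of 18 clock genes, Npas2 was higher (19.7 to 22.6 CPM in females, 10.1 to 14.3 CPM in males, 0.75, 0.12) and Per2 lower (5.39 to 10.6 CPM in females, 15.9 to 21.1 CPM in males, −1.17, 0.20), both in every fit. Fed mice of the study were harvested in the morning and others after a day's fast, and which of these the sequenced livers were is not given in the sources used here. Of 25 acute phase genes 3 were higher and 1 lower (over all genes tested, 3.45% and 3.21%). Lbp, which binds lipopolysaccharide, had 99.1 to 135 CPM in females and 37.7 to 76.3 CPM in males (1.01, 0.19). Hamp2, a hepcidin paralog, had 893, 591, 393 and 698 CPM in females and 128, 128, 91.6 and 27.7 CPM in males (2.78, 0.50, adjusted p = 0.0193), and lost its call without KO male 3 (0.0666) or KO female 1 (0.0526). The metallothionein gene Mt1 had 239, 31.0, 44.4 and 25.9 CPM in females and 2.57, 1.55, 2.69 and 2.07 CPM in males (5.25, 1.02, adjusted p = 0.0324), but its call was lost without any 1 of the 4 males (highest adjusted p = 0.0984). Mt2, named after its values had been seen, had 171, 9.31, 18.5 and 10.6 CPM in females and 0.327 to 1.13 CPM in males (6.21, 1.53). It was not called (adjusted p = 0.0684), though 3 of 16 alternative fits called it. In both metallothioneins KO female 1 was the highest by several-fold.

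Of 17 ER chaperone and stress genes, 1 was called, against 6.66% of all genes tested. It was Xbp1, a transcription factor of the unfolded protein response, and was lower in females. The fitted log2 fold change was below 0 in all 17 (median −0.65), and 16 did not pass the test. Xbp1 had 95.1, 116, 128 and 106 CPM in females and 181, 213, 212 and 189 CPM in males (−0.84, standard error 0.12, adjusted p = 0.00125). Hspa5, the chaperone BiP, named after its values had been seen, had 356, 586, 521 and 759 CPM in females and 586, 1267, 816 and 1822 CPM in males (−1.01, 0.36, adjusted p = 0.141), so that the groups overlapped. Of 18 alternative fits, 2 called Hspa5. Summed, the list stood at 3444 to 4387 CPM in females and 3452 to 8058 CPM in males. In the 32-library model the list's median was −0.65 in KO mice on the CD, −0.21 in WT mice on the CD and −0.54 in KO mice on the WD. How far these medians differ was not tested. For Xbp1, edgeR's test called no difference in the sex difference between KO and WT mice (adjusted p = 0.183) or between the diets (0.148).

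Calls among zonation markers are set beside the 3.45% higher and 3.21% lower over all genes tested. Of 21 pericentral genes 2 were higher in females, Aldh3a2 and Cyp2c37 (460.4 to 715 CPM in females, 130.2 to 289 CPM in males, 1.49, standard error 0.24), and both held in every leave-one-out fit. Of 20 periportal genes 2 were higher, Ctsc (0.49, 0.11) and Gls2 (0.63, 0.17), and lost their calls in 4 and 6 of the 8 fits (highest adjusted p = 0.0642 and 0.121). Of 35 amino acid and urea cycle genes 3 were higher, and each lost its call in some fit. Gpd1, the glycerol-3-phosphate dehydrogenase, was the only 1 of 20 genes of glucose metabolism to be called, against 6.66% of all genes tested. It had 160, 228, 172 and 225 CPM in females and 337, 362, 337 and 329 CPM in males (−0.80, 0.13, adjusted p = 0.00449). The lists of markers of other cells were short, with 4 to 16 genes tested in each. Of 4 adipocyte genes tested, Fabp4 was higher (9.06 to 19.1 CPM in females, 6.13 to 8.33 CPM in males, 0.93, 0.23), and its call was lost in 5 of the 8 fits (highest adjusted p = 0.0986). None of 14 macrophage, 10 lymphocyte, 15 endothelial, 7 cholangiocyte, 5 erythroid and 9 proliferation genes was called by edgeR or DESeq2. In that order, 1, 2, 3, 0, 0 and 0 of them had an unadjusted p under 0.05 in edgeR's test. Over all 12170 genes tested, 2662 had such a p. With so few genes in a list, the absence of a call says little. Of 16 stellate cell and matrix genes, Ecm1 was higher (112 to 128 CPM in females, 71.8 to 93.8 CPM in males, 0.58, 0.11) and so was Pdgfra (0.51, 0.13), which lost its call in 6 of the 8 fits (highest adjusted p = 0.0932). The summed level of that list was 561 to 887 CPM in females and 514 to 565 CPM in males, with overlap, and its part in the other differences was not tested.

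Several called genes lay next to each other. Along the tested autosomal genes, 8 runs of 3 or more neighbours were all higher in females and 7 runs all lower, and the runs were looked for after the calls had been seen. The longest, chr7:25897620-27037375, held 8 higher genes from Cyp2b10 to Cyp2a12, and chr5:145436309-145805874 held 5 higher genes of the Cyp3a cluster from Cyp3a16 to Cyp3a44. Further higher runs included the Sult2a genes on chromosome 7 (4 genes), the Cyp4a genes from Cyp4a14 to Cyp4a32 on chromosome 4 (4 genes), Sult3a2, Sult3a1 and Rsph4a on chromosome 10, Acot4, Acot3 and Acot6 on chromosome 12, and Pla2g16, Slc22a26 and Slc22a27 on chromosome 19. Lower runs included 3 stretches of Mup genes on chromosome 4, with 3, 3 and 5 genes, the Hsd3b genes on chromosome 3 and the Nat8 genes on chromosome 6. Chromosome 4, with the Mup genes, had 46 of its 810 tested genes lower (5.68%) and 25 higher (3.09%), and chromosome 5 had 43 of 811 higher (5.30%) and 25 lower (3.08%). The other lower runs were Carmil1, Gm11340 and Cmah on chromosome 13 and Lama3, Ttc39c and Cabyr on chromosome 18, which are not gene families. In the runs of tandem families, members can share reads.

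The sex difference in KO livers was then set against that in WT livers on the same diet, in 1 model of all 32 libraries, in which 1583 genes (12.1% of 13109 autosomal genes) were called between the sexes in KO mice and 593 (4.52%) in WT mice. Of the 420 genes higher in KO females, 377 were also above 0 in WT mice, where 50.2% of all genes tested were, and 141 were called in the same direction. Of the 391 lower genes, 364 were below 0 in WT mice, where 49.8% of all genes tested were, and 124 were called. None was called in the opposite direction. The difference between the 2 sex differences was called for a single gene (0.00763%), although an unadjusted p under 0.05 was found for 1336 genes, and DESeq2 called 46. That gene was Pdk2, a kinase that inhibits pyruvate dehydrogenase. It had 121, 90.9, 81.0 and 104 CPM in KO females and 65.7, 56.8, 68.8 and 51.0 CPM in KO males, against 73.7, 73.6, 78.7 and 74.4 CPM in WT females and 91.2, 84.4, 96.0 and 85.9 CPM in WT males. In KO mice all females lay above all males, and in WT mice all females lay below all males, by a log2 fold change of 0.72 and −0.25. The difference of 0.97 (standard error 0.17, adjusted p = 0.0429) remained past the threshold in 4 of 16 leave-one-out fits, those without KO male 3, WT female 3, KO female 2 or KO female 3, and was lost in the other 12 (adjusted p = 0.0575 to 0.166). The acinar genes were high in WT females 2 and 4 as well, at 7897 and 1727 CPM, and without all libraries rich in them the difference in Pdk2 was 1.02 (adjusted p = 0.167).

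Between KO mice on the CD and KO mice on the WD, 32 genes (0.244% of 13109) had sex differences that differed, 26 of them more toward females on the CD and 6 more toward males, with 1289 genes at an unadjusted p under 0.05. The number called was 58 without KO female 3 on the CD, 21 without KO male 3 on the CD and 18 without KO female 3 on the WD. On the WD, 1377 genes (10.5%) were called between the sexes. Of the 420 genes higher in females on the CD, 380 were above 0 on the WD, against 51.1% of all genes tested, and 203 were called there in the same direction and 1 in the opposite. Of the 391 lower genes 377 were below 0 on the WD, against 48.8% of all genes tested, and 194 were called in the same direction and 1 in the opposite. Abcc3, an efflux pump for bile acid conjugates, led these genes. It had 170, 144, 200.3 and 192 CPM in KO females and 46.9, 72.7, 67.5 and 49.2 CPM in KO males on the CD, and 152, 171, 190 and 179 CPM in KO females and 235, 263, 262 and 371 CPM in KO males on the WD. The sexes were thus separate in opposite directions on the 2 diets (difference of log2 fold changes 2.30, standard error 0.30, adjusted p = 0.000343), and the call held in all 16 leave-one-out fits. In WT mice on the CD females were also above males (log2 fold change 0.96, adjusted p = 0.00627).

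For several genes the male means lay further apart between the diets than the female means. Gpat3, a glycerol-3-phosphate acyltransferase, had 11.1, 5.30, 6.49 and 9.45 CPM in females and 1.14, 1.72, 0.906 and 1.05 CPM in males on the CD, and 10.96 to 12.5 CPM in females and 8.05 to 14.3 CPM in males on the WD (difference 2.50, standard error 0.42, adjusted p = 0.00430). Sulf2, a heparan sulfate 6-O-endosulfatase, had 16.9 to 24.1 CPM in females and 8.33 to 11.7 CPM in males on the CD, and 21.8 to 28.6 CPM in females and 25.7 to 37.0 CPM in males on the WD (1.35, 0.22, adjusted p = 0.00406). Sulf2 lost its call with length offsets (0.0657). Rassf3, a Ras-association domain protein gene, ran the other way, with 39.0 to 43.2 CPM in females and 74.1 to 98.2 CPM in males on the CD, and 46.1 to 52.6 CPM in females and 55.8 to 63.4 CPM in males on the WD (−0.81, 0.13, adjusted p = 0.00406). Osbpl3, an oxysterol-binding protein family gene, overlapped between the sexes on the CD (1.34 to 1.85 CPM in females, 1.16 to 1.73 CPM in males) and was at 1.70 to 1.99 CPM in females and 4.19 to 31.2 CPM in males on the WD (3.25, 0.52, adjusted p = 0.00406). Lrrc39, a leucine-rich repeat gene of low level, had means of 1.43 ± 1.08 CPM in females and 0.290 ± 0.130 CPM in males on the CD, and 0.393 ± 0.191 CPM in females and 1.65 ± 0.687 CPM in males on the WD (4.32, 0.73, adjusted p = 0.00430). These 5 calls held in all 16 leave-one-out fits. Those of Aldh3a2 (1.21, 0.26, adjusted p = 0.0324) and Cyp2b10 (7.86, 1.63, 0.0349) were lost in 10 and 12 of 16, with highest adjusted p of 0.0910 and 0.0817.

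**Figure D4:**
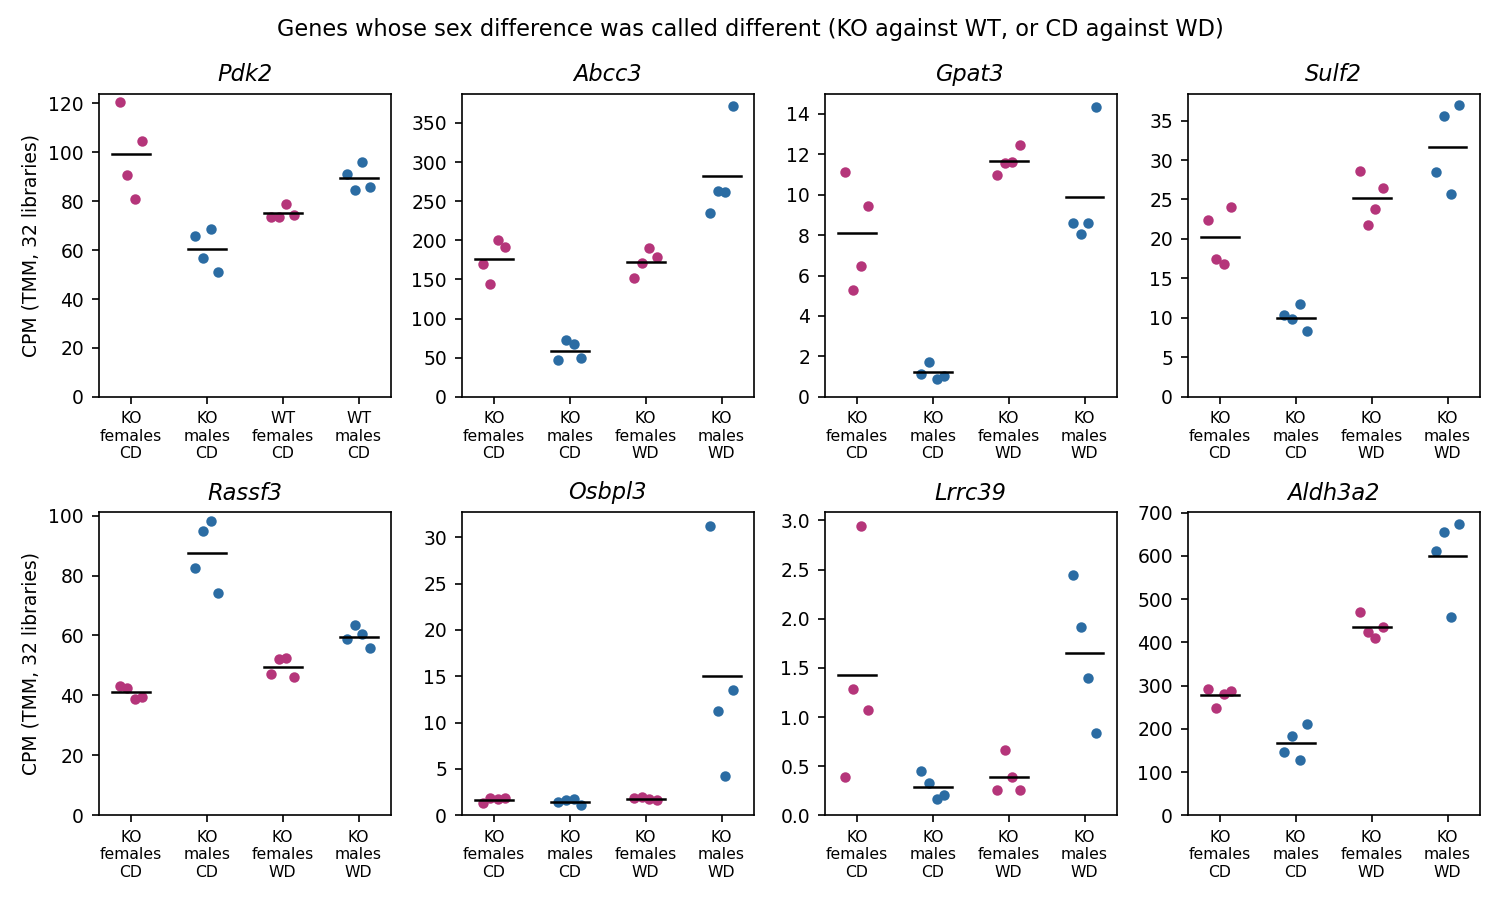
CPM (y axis, from 0, scaled over all 32 libraries) of 8 genes whose sex difference was called different, in KO females and KO males on the CD and, beside them, in WT females and WT males on the CD for Pdk2 or in KO females and KO males on the WD for the others (x axis). Each point is 1 library (magenta females, blue males) and black bars are means. Pdk2 lies above males in KO females and below males in WT females, and Abcc3 has means of 176 CPM in females and 59.1 CPM in males on the CD and 173 CPM in females and 283 CPM in males on the WD.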

How the data were processed

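Liver RNA of 32 mice was sequenced by the authors (KAPA mRNA HyperPrep libraries, paired-end), and 8 libraries are described here. The deposited values are estimated counts and TPM per transcript, made by the authors with Salmon 1.3.0 against mouse GRCm38 transcripts, and the authors' own tests used DESeq2 1.28.1. Gene counts are sums over the transcripts that GENCODE vM21 assigns to each gene (115973 of 117135 were found there), rounded to whole numbers, and 0.315 to 0.424% of counts had no gene. The deposited TPM were summed for levels per gene length only. A gene was tested when 4 or more libraries had 10 or more counts of it, with edgeR 4.0.16 (R 4.3.3, TMM factors, robust quasi-likelihood F-test), with Benjamini-Hochberg adjustment over all genes tested and a threshold of 0.05. Differences between sex differences came from 1 model of all 32 libraries. A call is an adjusted p under 0.05, and autosomal genes are described. p-values measure only the spread between these livers.

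Depth was 10189959 to 15084668 counts per library, and counting intervals cover counting error only. Named genes were Nudt7, up to 14 higher and 14 lower called genes with the largest fold change (mean log2 CPM above 1, groups separate), up to 4 or 6 called members of each list by smallest p (where none was called, the 1 with the smallest p) and up to 6 genes for each test of a difference between sex differences. Others are stated to have been chosen after their values were seen. The members and lists were chosen with earlier results of these data known. Alternatives were DESeq2 1.42.0, other scalings and filters, length offsets, a replicate block, the removal of libraries with pancreatic transcripts and leaving out each library. The scripts were tested on simulated data. Promoters are from RefSeq (GRCm38.p6). Some genes that the rule named are not reported here.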

Additional observations from a re-analysis of the deposited data

Results flagged for a closer look

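In 31 of 278 groups of 4 libraries, 1 library lay far from the other 3. The rule used would flag about 1 in 20 groups of independent, normally distributed values. The groups here include related genes and genes chosen by their results, so their number cannot be set against that share. Among KO females on the CD, female 1 stood apart with 142 CPM for Hsd3b3 (others 173 to 178), 124 for Acot3 (61.9 to 67.2), 220 for Acot4 (others 128), 239 for Mt1 (25.9 to 44.4), 171 for Mt2 (9.31 to 18.5), 1.33 for Osbpl3 (1.81 to 1.84) and 19700 for the summed Serpina1 family (14800 to 15600). Female 2 had 1.59 CPM for Slc22a28 (0.153 to 0.302) and 246 for Aldh3a2 (283 to 289). Female 3, the library with pancreatic transcripts (3810 CPM summed over the acinar genes, others 8.26 to 158), had 273 CPM for Slc22a26 (113 to 137), 4.65 for Serpina4-ps1 (0.234 to 0.875), 53.9 for Fmo2 (41.1 to 42.3), 587 for Cyp7a1 (37.3 to 82.3) and 10.8 for Cpt1b (5.94 to 6.50).

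Among KO males on the CD, male 1 had 416 CPM for C9 (602 to 637) and 124 for Agxt (180 to 184). Male 2 had 0.572 CPM for Cyp3a16 (0.0756 to 0.103), 1.88 for Slc22a26 (0.378 to 0.414), 0.898 for Cpt1b (2.53 to 2.79), 8.66 for Nudt8 (5.63 to 6.00) and 171 for Ces1g (113 to 115). Male 3 had 24.5 CPM for Ugt2b38 (2.69 to 3.40), 0.980 for Cux2 (0.302 to 0.414), 233 for Cyp7b1 (109 to 125), 24.3 for Acot4 (53.8 to 59.5), 9.88 for Pdgfra (7.86 to 8.09) and 0.0816 for the summed Sult3a family (others 0). Male 4 had 1410 CPM for Gstp1 (590 to 678), 1440 for the summed Gstp family (614 to 701) and 30 for the acinar genes (11.5 to 13.9).

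The test of a difference between sex differences called 1 gene between KO and WT mice, Pdk2 (0.97 on the log2 scale), and 32 between the diets in KO mice. Those between the diets included Abcc3 (2.30), Osbpl3 (3.25), Sulf2 (1.35), Lrrc39 (4.32), Gpat3 (2.50), Aldh3a2 (1.21), Cyp2b10 (7.86) and Rassf3 (−0.81).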

How the results depend on the processing

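The 811 calls between KO females and KO males became 1583 in the model of all 32 libraries and 1268 with DESeq2 on gene sums, and ranged from 519 to 762 when 1 library was left out. They stayed within 1.5 times under the other settings, such as 821 with RLE factors. A replicate block gave 703 calls, of which 606 were shared. Same-numbered mice did not deviate together (mean r = 0.006 over 4 pairs), so no pairing by number was seen. Shared litters or cages were not tested. The 1 gene whose sex difference differed between KO and WT became 0 with RLE factors, no filter, length offsets in edgeR or without libraries with pancreatic transcripts, 3 with the replicate block, 46 with DESeq2 and 40 with DESeq2 and length offsets, and ranged from 0 to 8 with 1 library left out. The 32 genes that differed between diets became 162 with DESeq2, 128 with DESeq2 and length offsets, 70 without libraries with pancreatic transcripts and 26 with the block, and ranged from 18 to 58 with 1 library left out. Of 115 named called genes, 78 kept their call whichever library was left out, and none turned. Nudt19 (0.04) turned to −0.0163 with length offsets in edgeR and −0.0224 with them in DESeq2 and ranged from −0.0474 to 0.1522 with 1 library left out, and Nudt8 (−0.10) ranged from −0.1576 to 0.0703. The cause was not tested. Genes with few counts, such as Lrrc39 or Cyp2b10 in males, are limited by depth, and 4 livers a group limit small differences.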
